A study of Homo sapiens with 16 samples.

Results

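Transcript levels of 44 genes of the actin cytoskeleton and of focal adhesions were examined in edited HepG2 cells given palmitic acid. The genes were a list of symbols that covers actin itself, the proteins that assemble, cap, sever and bundle its filaments, non-muscle myosin, and the proteins that tie filaments to integrins and to the plasma membrane. All 44 were among the 16558 genes measured, and 43 had a mean of at least 1 unit over the 16 libraries and were tested. The gene below that level was MSN. HepG2 is an established line from a human liver tumour that still makes many hepatocyte products. Its cells carried an edit, made by prime editing, at the I148M codon of PNPLA3, a gene for a lipid droplet protein, and were labelled G/G (GG), G/C (GC) or C/C (CC), where G encodes the I148M form. There were 3 GG clones (numbered 1, 2 and 6), 3 GC clones (2, 3 and 4) and 2 CC clones (1 and 3), and each gave 1 untreated library and 1 library after 250 µM palmitic acid, a saturated fatty acid with which cultured hepatocytes are commonly overloaded. Whether each numbered line grew from a single cell, what the untreated cells received in place of palmitic acid, and the genotype of the line before editing are not stated here.

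Actin monomers join into filaments that grow at one end and are taken apart at the other. Profilin and thymosins hold monomers, the Arp2/3 complex and formins start new filaments, capping protein stops their growth, and cofilins cut old ones with the help of WDR1, coronins and CAP proteins. Crosslinkers such as alpha-actinin, filamin and fascin gather filaments into bundles and nets, tropomyosins coat them, and non-muscle myosin pulls on them. At focal adhesions, talin, vinculin, zyxin and LIM-domain proteins connect the bundles to integrins, and in hepatocytes actin also lines the bile canaliculus. Many genes of this machinery are targets of the transcription factor SRF, whose co-activators of the MRTF family are held back by monomeric actin.

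Between 9314342 and 15777669 reads and between 15662 and 16206 genes were detected per library. Values are given in the deposited per-million units, and a change is the difference between the log2 levels (value plus 0.5) of a clone's treated and untreated library. The response over genotypes is the mean of the 3 genotypes' responses, tested with limma with the clone as a block, and p-values were adjusted over all 13095 tested genes. The labels number the clones but say nothing of separate cultures, so the p-values measure the spread between these libraries, which may be technical in part. CC clone 3 stood apart: the SD of its changes over all tested genes was 0.567, against 0.311 to 0.404 in the other clones, and its treated library was the shallowest. Where a call on a gene named here was lost without CC clone 3, the value without it is given.

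Most of these genes were higher under palmitic acid. Of the 43 tested, 27 rose and 2 fell at an adjusted p below 0.05 in the response over genotypes, and 14 did not pass. Among all tested genes 9.33% rose and 9.52% fell. The median log2 change of the 43 was 0.37, against -0.0061 for all tested genes, and the change was above 0 in 41 of 43. The list was chosen with earlier results of these data known. Comparisons of the 43 with all tested genes, here and below, are therefore descriptive. The largest rises were TAGLN at 1.25, TAGLN2 at 1.07 and CAP2 at 0.89 on the log2 scale, and the genes that fell were LIMA1 at -0.51 and PDLIM1 at -0.69. In bulk RNA, a changed share of cells with a transcript and a changed amount per cell cannot be told apart. The smallest p-values belonged to CAP2, FSCN1 and ZYX, each with an adjusted p = 8.56e-05, and to ABLIM1 with 0.000104. A total of 17 of the genes were higher in all 8 clones and 2 were lower in all 8, against 6.77% and 6.79% of all tested genes. In 2 genes, CFL1 and ZYX, the lowest treated library lay above the highest untreated one (0.0993% of all tested genes), and in the other 41 the libraries overlapped. Without the clone block limma called 1 of the 43, CFL1, upward and 0 downward, with 3 genes of all tested in each direction. Without CC clone 3 the counts were 19 up and 2 down.

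**Figure D1:**
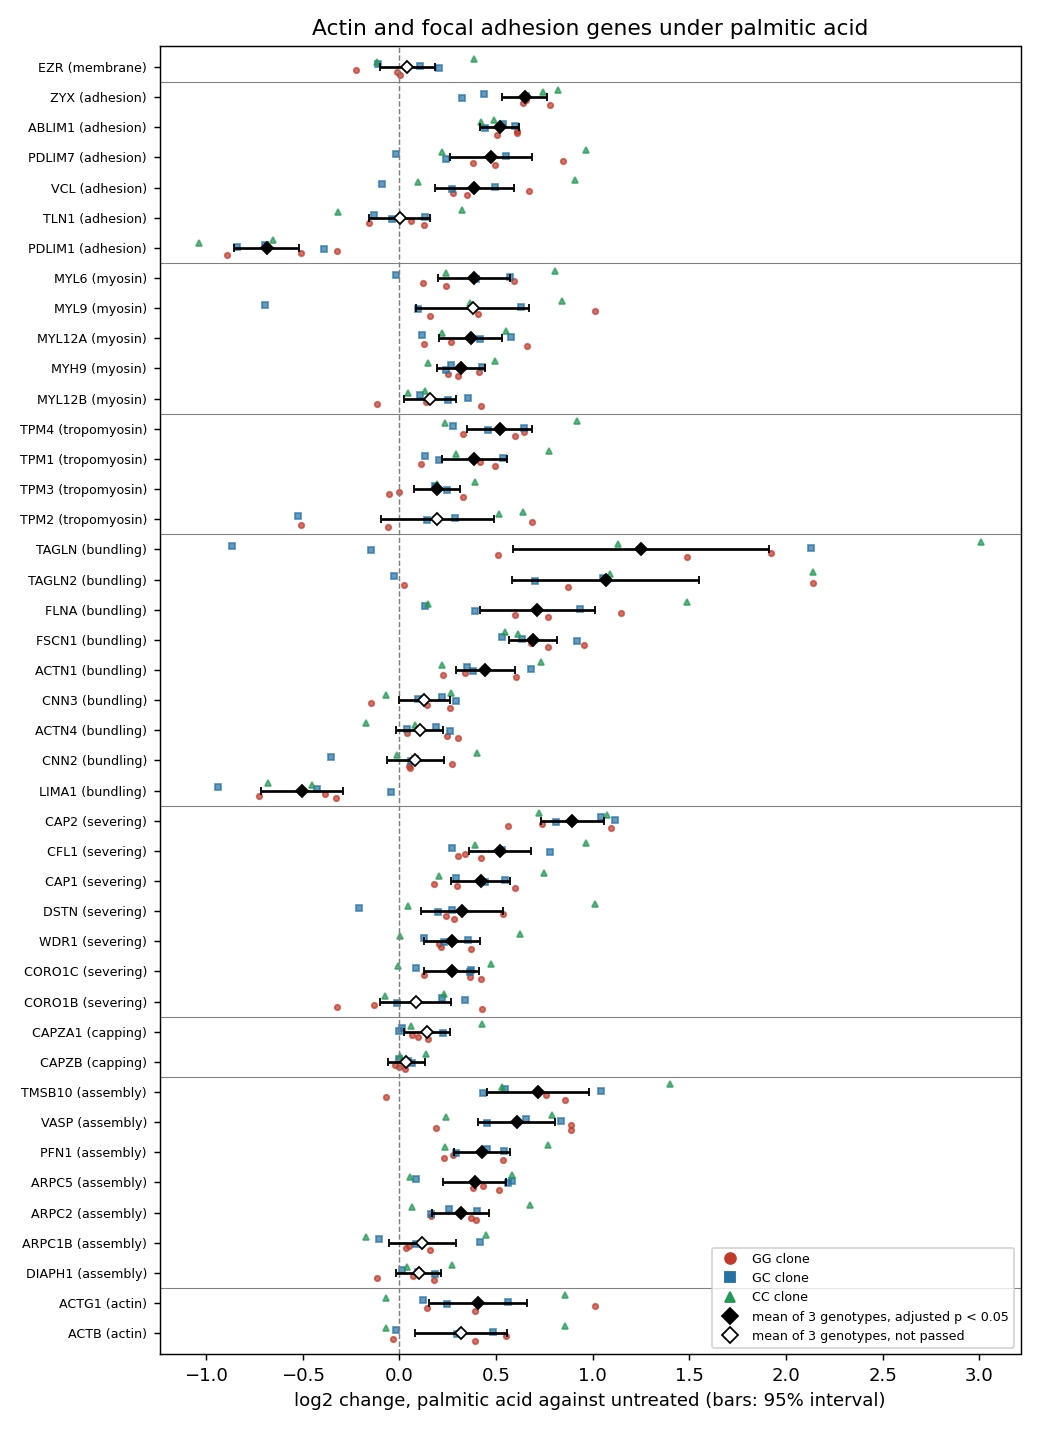
Log2 change under palmitic acid (x axis) of each of the 43 tested genes (y axis, grouped by role), with 1 point per clone coloured by genotype; diamonds are the mean of the 3 genotype responses with the 95% interval, filled where the adjusted p is below 0.05. Filled diamonds lie right of 0 for 27 genes and left of 0 for LIMA1 and PDLIM1, and the points of TAGLN spread most widely.

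By role, 5 of 7 assembly genes, 6 of 7 severing and turnover genes, 5 of 9 bundling genes, 3 of 4 tropomyosins, 3 of 5 myosin genes and 4 of 6 adhesion genes rose. Among all tested genes 9.33% rose. Neither capping gene passed, 1 of 2 actin genes rose, and the membrane linker EZR did not pass. The median log2 changes were 0.45 for bundling, 0.43 for adhesion, 0.39 for assembly, 0.37 for myosin, 0.36 for actin, 0.32 for severing, 0.29 for tropomyosin and 0.089 for capping genes. Both genes that fell were in the 2 roles with the highest medians, LIMA1 in bundling and PDLIM1 in adhesion. The roles were not tested against each other.

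Levels between genes were compared per kilobase, as units divided by the median length of a gene's coding transcripts in GENCODE 29. Places on this scale depend on that length and are approximate. For ACTN4 the 3 coding transcripts run from 1566 to 4963 bases, and the median used was 2102. On this scale the untreated mean was highest for ACTB at 1124 (clones 766 to 1399) and ACTG1 at 709 (422 to 1084), the cytoplasmic actins. These were followed by the monomer-binding TMSB10 at 249 (121 to 401), the alpha-actinin ACTN4 at 208 (188 to 229.9), PFN1 at 199 (169 to 242) and CFL1 at 188 (166 to 212). ACTB and ACTG1 overlapped between clones, as did the other 4 among themselves. At the low end stood VCL at 11.5 (7.07 to 15.6), TPM2 at 8.13 (2.41 to 12.6), LIMA1 at 7.33 (3.25 to 18.5) and TAGLN2 at 1.40 (0.602 to 3.04). Their ranges over clones overlapped except that TAGLN2 lay below LIMA1 and VCL. MSN, which links filaments to the membrane, had 0 to 14.0 reads per library and was not tested. How far clones of these cells differed before treatment varied between genes. The ratio of the highest to the lowest untreated clone, in units, was 1.12 for TLN1 and 1.18 for ARPC1B. It reached 6.08 for TAGLN, 5.71 for LIMA1, 5.24 for TPM2, 5.04 for TAGLN2 and 4.88 for CAP2.

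The promoters of the 44 genes were searched for the CArG box, the element that SRF binds, in its strict form and on both strands. RefSeq promoters (build GRCh38.p14, 250 bases before to 50 after a start) were at hand for 39 of the 44 genes, with 66 promoters. A box stood in 5 of them (7.58%), against 1.29% of all 35116 promoters of the same length. Among all tested genes that rose the share was 2.03%. The 5 windows below are shown because they hold these boxes. Each reads 5′ to 3′ on the gene's strand, with the box in capitals.
ACTG1, chr17:81512874-81512903, minus strand: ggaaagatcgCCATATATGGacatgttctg
ACTN1, chr14:68977703-68977762, minus strand: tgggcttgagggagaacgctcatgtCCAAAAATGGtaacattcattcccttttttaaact
FLNA, chrX:154374709-154374738, minus strand: ggcaattttaCCAATTAAGGctttctcgcc
TPM4, chr19:16067340-16067399, plus strand: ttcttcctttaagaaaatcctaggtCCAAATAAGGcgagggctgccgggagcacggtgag
CNN2, chr19:1026494-1026553, plus strand: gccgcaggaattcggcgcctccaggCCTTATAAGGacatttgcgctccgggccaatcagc
The box began 94 bases before the start in ACTG1 and FLNA, 89 in CNN2, 171 in ACTN1 and 173 in TPM4. In GENCODE 29 the ACTG1 window lay in an exon of a longer ACTG1 transcript, the FLNA window in an exon of the neighbouring AC245140.3, and the other windows in no exon. Of these genes ACTG1, ACTN1, FLNA and TPM4 rose and CNN2 did not pass. By promoter, a box stood in 4 of 45 (8.89%) for the genes of the list that rose. It stood in 1 of 16 (6.25%) for those that did not pass and in 0 of 3 for those that fell. The difference between these shares was not tested. A match of letters is a description of the sequence and does not show binding.

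The cytoplasmic actins make up the filaments. ACTG1, gamma-actin, went from 1599 to 2098 units in GG clone 1, 1443 to 1594 in clone 2 and 828 to 1671 in clone 6. In GC it went from 1349.9 to 1602 in clone 2, 1588 to 2346 in clone 3 and 2125 to 2311 in clone 4, and in CC from 1223 to 1165 in clone 1 and 967 to 1749 in clone 3. It was higher with palmitic acid in 7 of 8 clones, by most in GG clone 6 and CC clone 3, which had the lowest untreated levels, and the log2 change was 0.41 ± 0.12 (SE, adjusted p = 0.0323). The call was lost without CC clone 3 (0.25, adjusted p = 0.175), in 5 of the other 7 fits that left out a clone, and with DESeq2 (adjusted p = 0.0568). ACTB, beta-actin, had 1388 to 2534 units untreated (median 2068) and 2154 to 2993 with palmitic acid (median 2479.7). Its log2 change was 0.32 ± 0.11 (SE, adjusted p = 0.0634), which did not pass, with 5 of 8 clones above 0. DESeq2 gave ACTB an adjusted p = 0.00916, and a fit that weighted clones equally gave 0.0434. Reads of ACTB and ACTG1 are hard to part, from each other and from the 10 and 20 pseudogene copies named after them in GENCODE 29, so both levels are uncertain.

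Of the genes that supply monomers and build filaments, VASP, PFN1, TMSB10, ARPC5 and ARPC2 rose. VASP, which speeds elongation at filament ends, went from 54.6 to 101 units in GG clone 1, 70.4 to 80.4 in clone 2 and 46.4 to 86.3 in clone 6. It went from 65.2 to 89.3 in clone 2, 56.9 to 102 in clone 3 and 44.3 to 70.0 in clone 4 in GC and from 44.3 to 52.5 in clone 1 and 58.6 to 102 in clone 3 in CC. The clones with the smallest changes were GG clone 2 (0.19) and CC clone 1 (0.24), and the log2 change over genotypes was 0.61 ± 0.091 (SE, adjusted p = 0.00156). PFN1, profilin, a carrier of monomers, went from 240.4 to 349 units in GG clone 1, 261 to 307 in clone 2 and 298 to 361 in clone 6. In GC clones PFN1 went from 240.4 to 294 in clone 2, 231 to 336 in clone 3 and 208 to 285 in clone 4, and in CC clones from 262 to 309 in clone 1 and 219 to 372 in clone 3. The treated libraries of GC clones 2 and 4 lay below the untreated maximum in GG clone 6, the other 6 above it, and the change was 0.43 ± 0.066 (SE, adjusted p = 0.00189). PFN1 shares sequence with 10 pseudogene copies.

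ARPC5 and ARPC2, subunits of the Arp2/3 complex, which branches new filaments off old ones, were higher in all 8 clones. ARPC5 went from 47.9 to 68.6 units in GG clone 1, 58.5 to 76.2 in clone 2 and 47.4 to 64.1 in clone 6. It moved from 52.2 to 77.3 in clone 2, 40.4 to 60.7 in clone 3 and 36.0 to 38.3 in clone 4 in GC, and from 60.5 to 62.8 in clone 1 and 41.4 to 62.3 in clone 3 in CC. GC clone 4 and CC clone 1 barely differed from their controls (0.088 and 0.053), while the other clones lay between 0.38 and 0.58, for a log2 change of 0.39 ± 0.075 (SE, adjusted p = 0.00522). ARPC2 levels went from 130.3 to 172 units in GG clone 1, 128 to 165 in clone 2 and 193 to 216 in clone 6. For GC they went from 151 to 169.5 in clone 2, 126 to 166 in clone 3 and 119.5 to 143 in clone 4, and for CC 147 to 154 in clone 1 and 145 to 231 in clone 3. CC clone 3 had the largest change and CC clone 1 the smallest, so the CC pair spanned all other clones, and the change was 0.32 ± 0.068 (SE, adjusted p = 0.00860). The third subunit listed, ARPC1B, had 34.4 to 40.8 units untreated (median 38.5) and 34.5 to 55.2 with palmitic acid (median 40.7) and did not pass (0.12 ± 0.079 (SE, adjusted p = 0.318)). TMSB10, a thymosin that sequesters monomers, had 59.9 to 199 units untreated (median 134) and 86.9 to 388 with palmitic acid (median 206). It was higher in 7 of 8 clones and about level in GG clone 2, with a log2 change of 0.72 ± 0.12 (SE, adjusted p = 0.00275). DIAPH1, a formin that elongates unbranched filaments, had 166 to 296 units untreated (median 211) and 167 to 273 with palmitic acid (median 237), and its change was 0.10 ± 0.052 (SE, adjusted p = 0.203).

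The subunits of capping protein, which blocks the growing end, did not pass the test. CAPZB ranged over 128 to 158 units untreated (median 142) and 134 to 158 with palmitic acid (median 142), with a log2 change of 0.036 ± 0.043 (SE, adjusted p = 0.599) and a 95% interval of -0.059 to 0.13. For CAPZA1 the levels were 124 to 169 units untreated (median 150.0) and 125 to 181 with palmitic acid (median 169). Its change was 0.14 ± 0.054 (SE, adjusted p = 0.0857), with 0.43 in CC clone 3 and -0.00096 to 0.22 in the other 7 clones. Without CC clone 1, CAPZA1 passed (0.20, adjusted p = 0.0148).

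Of the severing and turnover genes, 6 of 7 rose, with CAP2, CFL1, CAP1, WDR1, CORO1C and DSTN higher and CORO1B not passing. CAP2, a cyclase-associated protein that recycles monomers (ENSG00000112186.11, GRCh38 chromosome 6, 17393216 to 17557792, plus strand), went from 23.6 to 51.0 units in GG clone 1, 25.4 to 37.7 in clone 2 and 27.9 to 46.8 in clone 6. In GC it went from 25.3 to 44.7 in clone 2, 29.6 to 64.7 in clone 3 and 22.0 to 45.9 in clone 4, and in CC from 8.73 to 18.9 in clone 1 and 42.6 to 70.5 in clone 3. The CC clones were the lowest and the highest of all 8 before treatment, so that treated CC clone 1 stayed below every untreated library except its own, yet each clone changed by 0.56 to 1.11. The log2 change was 0.89 ± 0.075 (SE, adjusted p = 8.56e-05), a fold of 1.86. CFL1, cofilin, the main severing protein of non-muscle cells (ENSG00000172757.12, GRCh38 chromosome 11, 65823022 to 65862026, minus strand), went from 181 to 242 units in GG clone 1, 189 to 234 in clone 2 and 204 to 258 in clone 6. In the GC clones it went from 161 to 278 in clone 2, 166 to 239.7 in clone 3 and 185 to 223 in clone 4, and in CC from 199 to 261 in clone 1 and 160.2 to 313 in clone 3. All 8 treated libraries lay above all 8 untreated ones, the untreated clones were within 1.27-fold of each other, and the change was 0.52 ± 0.072 (SE, adjusted p = 0.00111). CFL1 has 8 pseudogene copies in GENCODE 29 with which reads could be shared.

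CAP1, the widely expressed relative of CAP2, went from 129.7 to 196 units in GG clone 1, 156 to 192 in clone 2 and 179 to 203 in clone 6. Its GC levels went from 133 to 181 in clone 2, 112 to 164 in clone 3 and 118 to 145 in clone 4, and its CC levels 138 to 159 in clone 1 and 148 to 249.5 in clone 3. Clone changes ran from 0.18 in GG clone 6 to 0.75 in CC clone 3, with overlapping libraries and a change of 0.42 ± 0.070 (SE, adjusted p = 0.00271). WDR1, which works with cofilin to take filaments apart, went from 173 to 224 units in GG clone 1, 165 to 192 in clone 2 and 221 to 255 in clone 6. It went from 153 to 180.3 in clone 2, 147 to 188 in clone 3 and 140.1 to 153 in clone 4 in GC and from 185 to 186 in clone 1 and 163 to 251 in clone 3 in CC. CC clone 1 was level, the other clones were higher, and the change of 0.27 ± 0.067 (SE, adjusted p = 0.0167) was 0.17 (adjusted p = 0.0763) without CC clone 3. The WDR1 call was also lost without GC clone 3 (adjusted p = 0.0539) and without GG clone 1 (0.0521). CORO1C, a coronin that steers cofilin and the Arp2/3 complex, had 177 to 265 units untreated (median 202) and 202 to 356 with palmitic acid (median 251). Its change was 0.27 ± 0.065 (SE, adjusted p = 0.0153), upward in 7 of 8 clones, with an adjusted p = 0.0803 without CC clone 3 and 0.0504 without GC clone 3. DSTN, destrin, a close relative of cofilin, had 91.5 to 144 units untreated (median 112) and 88.6 to 185 with palmitic acid (median 139.7) and a change of 0.32 ± 0.10 (SE, adjusted p = 0.0375). It was 0.16 (adjusted p = 0.201) without CC clone 3 and 0.48 (0.000754) without CC clone 1, and the call was lost in 6 of 8 fits that left out a clone. CORO1B, with 38.1 to 49.6 units untreated (median 41.3) and 33.1 to 55.6 with palmitic acid (median 50.0), was above its control in 4 of 8 clones and had a change of 0.084 ± 0.084 (SE, adjusted p = 0.512).

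**Figure D2:**
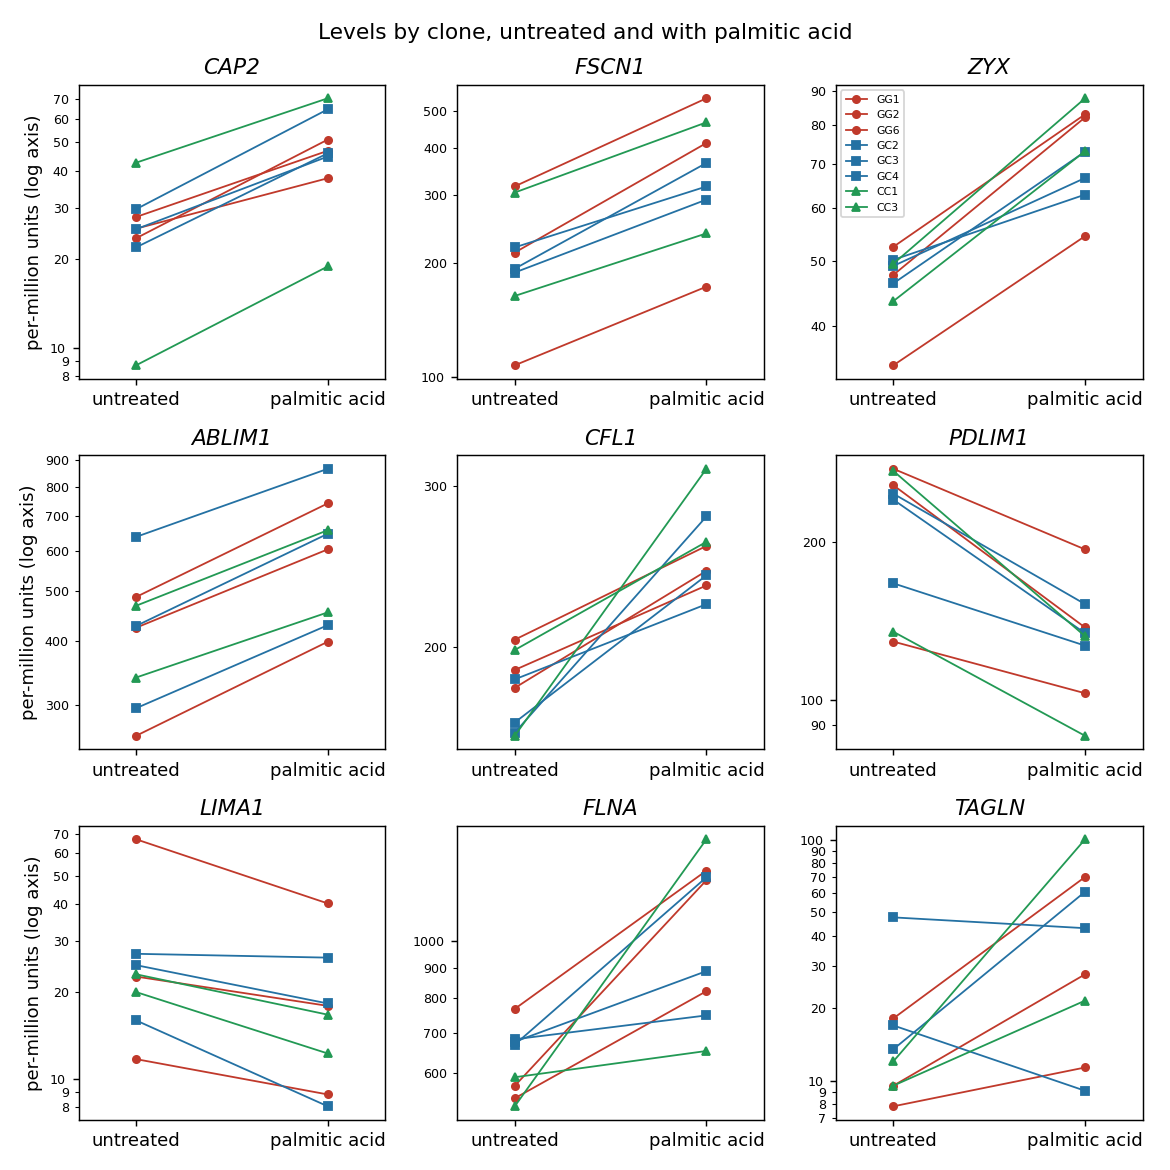
Levels of 9 genes in per-million units (y axis, log scale) in each clone without and with palmitic acid (x axis), 1 line per clone, coloured by genotype. The lines of CAP2, FSCN1, ZYX and ABLIM1 rise in every clone, most evenly for ABLIM1. Those of PDLIM1 and LIMA1 fall, and those of FLNA and TAGLN fan out.

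Among the crosslinkers and bundlers, FSCN1, ACTN1, FLNA, TAGLN and TAGLN2 rose and LIMA1 fell. FSCN1, fascin, which packs filaments into the parallel bundles of filopodia (ENSG00000075618.17, GRCh38 chromosome 7, 5592823 to 5606655, plus strand), went from 317 to 539 units in GG clone 1, 212 to 412 in clone 2 and 107 to 173 in clone 6. It went from 193 to 365 in clone 2, 188 to 292 in clone 3 and 219 to 317 in clone 4 in GC and from 305 to 466.44 in clone 1 and 163 to 238 in clone 3 in CC. The highest untreated clone, GG clone 1, held 2.95 times the level of the lowest, GG clone 6, and the change was 0.53 to 0.95 in every clone. Its log2 change was 0.69 ± 0.056 (SE, adjusted p = 8.56e-05), a fold of 1.61. FLNA, filamin A, which joins crossing filaments into a net (ENSG00000196924.15, GRCh38 chromosome X, 154348524 to 154374638, minus strand), went from 768 to 1310.1 units in GG clone 1, 543 to 822 in clone 2 and 570.1 to 1263 in clone 6. Its GC clones went from 676 to 888 in clone 2, 669 to 1277 in clone 3 and 683 to 749 in clone 4, and its CC clones from 589 to 652 in clone 1 and 527 to 1479 in clone 3. CC clone 3 had the lowest untreated and the highest treated level of all, CC clone 1 and GC clone 4 moved little (0.15 and 0.13), and the change was 0.71 ± 0.14 (SE, adjusted p = 0.00497). Without CC clone 3 the FLNA change was 0.49 (adjusted p = 0.0125).

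ACTN1, an alpha-actinin of stress fibres and adhesions, went from 88.1 to 134 units in GG clone 1, 102 to 119 in clone 2 and 111 to 139.9 in clone 6. In GC it went from 108 to 141 in clone 2, 99.1 to 159 in clone 3 and 94.958 to 121 in clone 4, and in CC from 83.5 to 97.3 in clone 1 and 117 to 194 in clone 3. The CC clones held the lowest and the highest level in both conditions, and the change was 0.44 ± 0.070 (SE, adjusted p = 0.00200). ACTN4 stood at 208 untreated units per kilobase against 33.0 for ACTN1, a gap whose size depends on the transcript length used. ACTN4 had 396 to 483 units untreated (median 443) and 359.5 to 558 with palmitic acid (median 488). Its change of 0.10 ± 0.055 (SE, adjusted p = 0.203) did not pass. It was below its control in CC clone 3 alone (-0.17), and without both CC clones it passed (0.18, adjusted p = 0.0477). LIMA1, known as EPLIN, which bundles and stabilises filaments and restrains branching, fell. It went from 22.6 to 17.9 units in GG clone 1, 66.9 to 40.3 in clone 2 and 11.7 to 8.86 in clone 6. In GC clones the levels went from 27.0 to 26.2 in clone 2, 24.7 to 18.2 in clone 3 and 15.9 to 8.07 in clone 4, and in CC clones 23.0 to 16.7 in clone 1 and 19.9 to 12.3 in clone 3. GG clone 2 stood far above the rest in both conditions, GC clone 2 was nearly level (-0.043), and the log2 change was -0.51 ± 0.10 (SE, adjusted p = 0.00523).

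The transgelins, small calponin-related proteins that stabilise bundles, had the largest and least even changes. TAGLN, well known as a smooth muscle and SRF-controlled gene (ENSG00000149591.16, GRCh38 chromosome 11, 117199321 to 117204782, plus strand), went from 9.55 to 27.7 units in GG clone 1, 7.84 to 11.4 in clone 2 and 18.2 to 70.2 in clone 6. In GC it went from 47.7 to 43.012 in clone 2, 13.5 to 60.9 in clone 3 and 17.0 to 9.10 in clone 4, and in CC from 9.55 to 21.5 in clone 1 and 12.0 to 101 in clone 3. The GC clones disagreed, at -0.15, 2.13 and -0.86, and CC clone 3 had the largest change of any of the 43 genes in any clone (3.01). The log2 change was 1.25 ± 0.30 (SE, adjusted p = 0.0160), and without CC clone 3 it was 0.94 with an adjusted p = 0.0904. TAGLN2 was scarce, with 0.966 to 4.87 units untreated (median 1.99) and 0.938 to 23.1 with palmitic acid (median 3.83), or 10.0 to 213 reads. It changed by 2.14 in GG clone 6 and 2.14 in CC clone 3 but by 0.025 in GG clone 2 and -0.028 in GC clone 4, and over genotypes by 1.07 ± 0.22 (SE, adjusted p = 0.00774). The calponins CNN2 (160.4 to 326 units untreated (median 258) and 194 to 340.0 with palmitic acid (median 265)) and CNN3 (134 to 273 units untreated (median 221) and 161 to 296 with palmitic acid (median 233)), which bind filaments and dampen myosin, did not pass. Their log2 changes were 0.083 ± 0.067 (SE, adjusted p = 0.411) and 0.13 ± 0.060 (SE, adjusted p = 0.156). CNN2 shares sequence with 11 pseudogene copies.

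Tropomyosins lie along filaments and set which other proteins can bind, and TPM4, TPM1 and TPM3 rose. TPM4 went from 177 to 268 units in GG clone 1, 173 to 217 in clone 2 and 186 to 291 in clone 6. In GC it went from 199 to 273 in clone 2, 173 to 271 in clone 3 and 156 to 189 in clone 4, and in CC from 152 to 179 in clone 1 and 171 to 323 in clone 3. Treated GC clone 4 and CC clone 1 lay within the untreated range, the other 6 treated libraries above it, and the change was 0.52 ± 0.076 (SE, adjusted p = 0.00145). TPM1 went from 25.3 to 35.8 units in GG clone 1, 31.8 to 34.4 in clone 2 and 29.3 to 39.4 in clone 6. Its levels went from 39.4 to 45.5 in clone 2, 27.6 to 40.3 in clone 3 and 17.1 to 18.9 in clone 4 in GC and from 25.0 to 30.7 in clone 1 and 23.5 to 40.6 in clone 3 in CC. GC clone 4 was lowest in both conditions and GC clone 2 highest, and the change of TPM1 was 0.39 ± 0.077 (SE, adjusted p = 0.00645). TPM3 had 141 to 242 units untreated (median 176) and 160.1 to 245 with palmitic acid (median 216). Its change of 0.20 ± 0.054 (SE, adjusted p = 0.0279) was small, with GG clone 2 below its control and GG clone 6 level, and the call was lost in 5 of 8 fits that left out a clone (adjusted p up to 0.119, without CC clone 3). TPM2, with the lowest level per kilobase of the 4, had 2.85 to 14.9 units untreated (median 9.77) and 1.86 to 17.5 with palmitic acid (median 10.9) and did not pass (0.20 ± 0.13 (SE, adjusted p = 0.327)), with 5 clones above their control and 3 below. In GENCODE 29, 8 pseudogene copies carry the name of TPM3.

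Non-muscle myosin II is a motor of heavy chains with essential and regulatory light chains, and MYH9, MYL6 and MYL12A rose. MYH9, a heavy chain, went from 554 to 683 units in GG clone 1, 496 to 591 in clone 2 and 641 to 852 in clone 6. It went from 592 to 699 in clone 2, 553 to 743 in clone 3 and 464 to 558 in clone 4 in GC, and from 614 to 680.3 in clone 1 and 739.8 to 1043 in clone 3 in CC. CC clone 3 was highest and GC clone 4 lowest in both conditions, and all clone changes lay between 0.15 and 0.49, for 0.32 ± 0.056 (SE, adjusted p = 0.00363) over genotypes. Another heavy chain gene, MYH10, which is not among the 44 and was picked after its values were seen, fell by 0.20 on the log2 scale (SE 0.049, adjusted p = 0.0168), in 8 of 8 clones. Its adjusted p was 0.0768 without CC clone 3 and 0.0593 without GC clone 3. MYL12A, a regulatory light chain, went from 74.6 to 118 units in GG clone 1, 116 to 127 in clone 2 and 105 to 126 in clone 6. In GC clones it went from 95.8 to 128 in clone 2, 77.8 to 116 in clone 3 and 86.5 to 93.8 in clone 4, and in CC clones from 76.1 to 88.8 in clone 1 and 100.1 to 147 in clone 3. The changes were smallest in GC clone 4 (0.12) and GG clone 2 (0.13), and the change over genotypes was 0.37 ± 0.074 (SE, adjusted p = 0.00649). Its near-identical neighbour on chromosome 18, MYL12B, had 98.1 to 172 units untreated (median 116) and 106 to 159 with palmitic acid (median 131) and did not pass (0.16 ± 0.062 (SE, adjusted p = 0.0934)); reads of the pair may be split unevenly. MYL6, the essential light chain, had 45.4 to 88.6 units untreated (median 67.1) and 51.9 to 96.6 with palmitic acid (median 89.6) and a change of 0.39 ± 0.085 (SE, adjusted p = 0.0101), with an adjusted p = 0.0560 without CC clone 3. MYL9, the regulatory light chain abundant in smooth muscle, had 32.8 to 85.3 units untreated (median 61.0) and 40.3 to 110.0 with palmitic acid (median 79.2). GC clone 4 was lower (-0.69) and the other 7 clones higher, and its change of 0.38 ± 0.13 (SE, adjusted p = 0.0694) did not pass. Without GC clone 4 the MYL9 change was 0.50 (adjusted p = 0.0171).

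At focal adhesions ZYX, ABLIM1, PDLIM7 and VCL rose, PDLIM1 fell, and TLN1 did not pass. ZYX, zyxin, which gathers VASP and alpha-actinin at adhesions and on strained stress fibres (ENSG00000159840.15, GRCh38 chromosome 7, 143381080 to 143391111, plus strand), went from 47.7 to 82.3 units in GG clone 1, 34.9 to 54.5 in clone 2 and 52.5 to 83.1 in clone 6. It went from 50.2 to 63.0 in clone 2, 46.3 to 73.0 in clone 3 and 49.2 to 66.7 in clone 4 in GC, and from 43.5 to 73.2 in clone 1 and 49.5 to 87.9 in clone 3 in CC. GG clone 2 was lowest in both conditions, and its treated library, the lowest of the treated at 54.5 units, still lay above the highest untreated library at 52.5. The log2 change was 0.65 ± 0.053 (SE, adjusted p = 8.56e-05), a fold of 1.57. ABLIM1, an actin-binding LIM protein (ENSG00000099204.19, GRCh38 chromosome 10, 114431113 to 114685003, minus strand), went from 425 to 604 units in GG clone 1, 261 to 399 in clone 2 and 488 to 742 in clone 6. In GC its levels went from 639 to 867 in clone 2, 428 to 648 in clone 3 and 296 to 429.6 in clone 4, and in CC from 339.5 to 455 in clone 1 and 469 to 658 in clone 3. Untreated clones differed 2.44-fold, but the clone changes lay between 0.42 and 0.61, and the log2 change was 0.52 ± 0.047 (SE, adjusted p = 0.000104).

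PDLIM1, a PDZ and LIM protein that sits on stress fibres through alpha-actinin (ENSG00000107438.8, GRCh38 chromosome 10, 95237572 to 95291024, minus strand), had the larger of the 2 falls. It went from 255.98 to 138 units in GG clone 1, 275 to 193 in clone 2 and 129 to 103 in clone 6. In GC it went from 167 to 127 in clone 2, 240.3 to 134 in clone 3 and 247 to 152 in clone 4, and in CC from 272 to 132 in clone 1 and 135 to 85.7 in clone 3. CC clone 3 had the lowest treated level and GG clone 2 the highest level in both conditions, and the libraries overlapped. The log2 change was -0.69 ± 0.076 (SE, adjusted p = 0.000327), a fold of 0.621. Its relative PDLIM7 had 12.5 to 28.988 units untreated (median 23.5) and 20.2 to 54.5 with palmitic acid (median 27.7) and changed in the other direction, by 0.48 ± 0.10 (SE, adjusted p = 0.00698), in 7 of 8 clones. VCL, vinculin, which reinforces adhesions under tension, had 42.3 to 93.7 units untreated (median 70.5) and 57.2 to 113 with palmitic acid (median 89.7). Its change of 0.39 ± 0.093 (SE, adjusted p = 0.0155) was 0.25 (adjusted p = 0.0806) without CC clone 3. TLN1, talin, which activates integrins and carries vinculin, had 298 to 334 units untreated (median 309.8) and 252 to 373 with palmitic acid (median 329.8). It was above its control in 4 clones and below in 4, and the log2 change was 0.0009 with a 95% interval of -0.16 to 0.16 (adjusted p = 0.994). EZR, ezrin, the membrane linker of epithelial cells, had 74.8 to 121 units untreated (median 94.5) and 70.4 to 128 with palmitic acid (median 96.3), and its change of 0.041 ± 0.065 (SE, adjusted p = 0.694) did not pass.

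Within single genotypes fewer genes passed. In GG, 4 of 43 rose and 0 fell (of all tested genes, 0.573% rose and 0.267% fell): CAP2 (0.80, adjusted p = 0.0205), FSCN1 (0.80), ZYX (0.69) and ABLIM1 (0.57). In GC, 5 rose and 1 fell (all genes: 0.878% and 0.664%). These were CAP2 (0.99), FSCN1 (0.69), CFL1 (0.53), ABLIM1 (0.53) and ZYX (0.47) upward, and PDLIM1 (-0.64) downward. In CC the same 6 genes passed (all genes: 0.848% up and 1.45% down), with CAP2 at 0.90, ZYX at 0.78, CFL1 at 0.68, FSCN1 at 0.58, ABLIM1 at 0.46 and PDLIM1 at -0.85. At an unadjusted p below 0.05 there were 30, 24 and 29 genes in GG, GC and CC, against 15.7%, 17.6% and 20.5% of all tested genes. The median changes were 0.34, 0.27 and 0.39, and 39, 38 and 40 of the 43 were above 0. These counts depend on single clones, and so do the counts over all tested genes. With all clones 75, 115 and 111 of all tested genes rose in GG, GC and CC. In GG 0 rose without GG clone 1 (0 of all tested genes) and 1 without GG clone 6 (3). Without CC clone 1 or 3, which enter through the shared spread, 12 and 13 rose in GG (272 and 276 of all tested genes). In GC 0 rose without GC clone 3 or without GC clone 4 (3 and 2 of all tested genes), and 13 without either CC clone (411 and 408). In CC 2 rose without GG clone 1 (54 of all tested genes). Leaving out a CC clone leaves 1 clone in CC, so no count is given. Without the clone block, 0 passed in any genotype.

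No difference between the genotypes' responses passed. In limma's F test of equal responses 0 of 43 genes passed (0.00764% of all tested genes), and 0 had an unadjusted p below 0.05, against 3.62% of all tested genes. The smallest unadjusted p was that of ZYX (0.0871, adjusted p = 0.998), whose changes were 0.69 in GG, 0.47 in GC and 0.78 in CC. edgeR and DESeq2 on the recovered reads called 0 of 43 as well. Between genotypes, compared at 1 treatment, 0 of 43 passed in any of the 6 comparisons. Of all tested genes 0% passed among untreated cells and between treated GG and GC, and 0.00764% between treated GG and CC and between treated GC and CC. At an unadjusted p below 0.05 there was 1 gene in 1 comparison, TPM2, at -1.21 ± 0.37 (SE) for untreated GG against GC (adjusted p = 0.810), and 0 in the other 5. Among all tested genes 5.64% had such a p in that comparison. The shares were 1.15% for GG against CC and 2.42% for GC against CC untreated, and 4.46% for GG against GC, 1.22% for GG against CC and 6.19% for GC against CC treated. TPM2 stood untreated at 9.48, 2.85 and 5.93 units in GG, at 14.9, 14.2 and 11.3 in GC and at 8.22 and 10.1 in CC, so that GG and GC did not overlap, as in 12.3% of all tested genes. With 2 or 3 clones a genotype the errors were wide: the median SE of the 43 log2 differences ran from 0.202 to 0.265. edgeR, DESeq2 and a fit over all 16 libraries also called 0 of 43 in each comparison.

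The size of the shift varied between clones. The median change of the 43 genes was 0.640 in CC clone 3, 0.495 in GC clone 3, 0.396 in GG clone 1 and 0.339 in GG clone 6. It was 0.252 in GC clone 2, 0.191 in GG clone 2, 0.146 in CC clone 1 and 0.116 in GC clone 4. Each genotype thus held a clone with a large and a clone with a small shift. Medians over all tested genes stayed between -0.018 and 0.021. Of the 43 genes, 40 were above 0 in GG clone 1, GC clone 3 and CC clone 3, 38 in GC clone 2 and 36 in GG clone 6. The other counts were 32 in CC clone 1, 31 in GG clone 2 and 27 in GC clone 4. The clone changes of MYL9 and TAGLN in GC clone 4 (-0.69 and -0.86) went against those of most clones, while CAP2, FSCN1, ZYX and ABLIM1 changed by 1.04, 0.53, 0.44 and 0.54 there.

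**Figure D3:**
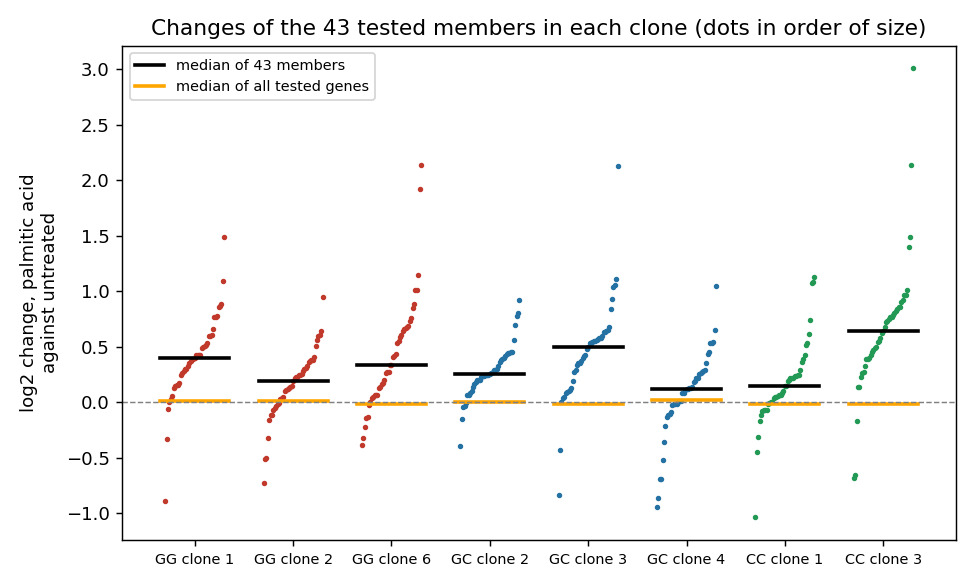
Log2 change under palmitic acid (y axis) of the 43 tested genes in each clone (x axis), 1 dot per gene in order of size; black bars are the median of the 43 and orange bars the median of all tested genes. The black bar lies above the orange one in all 8 clones, farthest in CC clone 3 and least in GC clone 4.

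Closely related genes did not always move alike. In each of 13 pairs the log2 changes were subtracted within every clone and tested with an exact, two-sided sign-flip permutation test over 8 clones, adjusted over the 13 pairs; the smallest p this allows is 0.00781. EZR and MSN, a further pair, were not compared because MSN was not tested. PDLIM1 moved below PDLIM7 in 8 of 8 clones, by -1.13 ± 0.36 (SD, n = 8), the widest gap. MYL12A moved above MYL12B in 8 of 8 clones, by 0.20 ± 0.12 (SD, n = 8), with a smallest clone gap of 0.0088. Reads of this pair may be split unevenly. ACTN1 moved above ACTN4 in 7 of 8 clones (0.32 ± 0.31 (SD, n = 8)), CAP2 above CAP1 in 7 of 8 (CAP1 minus CAP2, -0.48 ± 0.28 (SD, n = 8)) and TPM4 above TPM1 in 7 of 8 (TPM1 minus TPM4, -0.14 ± 0.10 (SD, n = 8)). All 5 pairs had an exact permutation p of 0.00781 or 0.0156 and an adjusted p = 0.0406. The pairs were chosen with earlier results of these data known, so these p-values are descriptive. With any clone left out, 0 pairs passed, and the lowest adjusted p was 0.0580 to 0.0813. The smallest exact permutation p that 7 clones allow is 0.0156 before adjustment. These fits therefore cannot tell dependence on a single clone from this limit of the test.

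The other 8 pairs did not pass. TPM1 minus TPM3 was 0.19 ± 0.18 (SD, n = 8), with an exact permutation p of 0.0312 and an adjusted p = 0.0677. CFL1 minus DSTN was 0.20 ± 0.26 (SD, n = 8), above 0 in 6 of 8 clones (adjusted p = 0.127, exact permutation test). CORO1B minus CORO1C was -0.19 ± 0.26 (SD, n = 8), TPM1 minus TPM2 0.22 ± 0.36 (SD, n = 8), and ACTB minus ACTG1 -0.10 ± 0.17 (SD, n = 8). For TAGLN minus TAGLN2 the mean was 0.15 ± 0.74 (SD, n = 8), with clones from -0.85 to 1.08. MYL9 minus MYL12A (-0.015 ± 0.50 (SD, n = 8)) and CNN2 minus CNN3 (-0.063 ± 0.29 (SD, n = 8)) had means near 0.

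**Figure D4:**
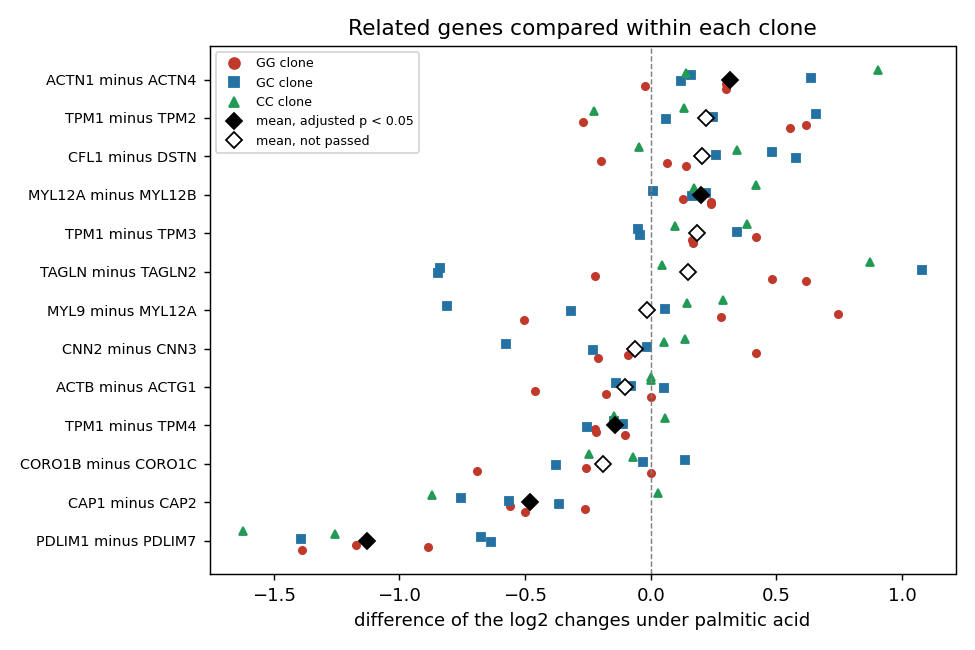
Difference between the log2 changes of 2 related genes (x axis) in each clone, 1 point per clone coloured by genotype, for the 13 pairs (y axis); diamonds are the mean over 8 clones, filled where the adjusted p of the exact permutation test is below 0.05. All points of PDLIM1 minus PDLIM7 lie left of 0 and all of MYL12A minus MYL12B right of it.

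The sum of squares of each gene's log2 levels over the 16 libraries was divided between genotype, clone within genotype, palmitic acid, their interaction and the residual. Over the 43 genes the median share of palmitic acid was 24.8%, against 4.29% over all tested genes. The clone within a genotype held a median of 44.5% (all genes 56.8%), the genotype 9.19% (16.8%) and the interaction 1.44% (2.45%). Palmitic acid took the largest part in CFL1 (77.2%), ZYX (72.5%), PFN1 (67.8%), TPM4 (57.8%) and VASP (55.9%). In LIMA1 81.6% lay between clones of a genotype and 11.7% with palmitic acid, and LIMA1 was lower in all 8 clones. FSCN1 and ABLIM1 were alike in this, with 63.0% and 64.6% between clones. These shares rest on unequal degrees of freedom and are descriptions.

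**Figure D5:**
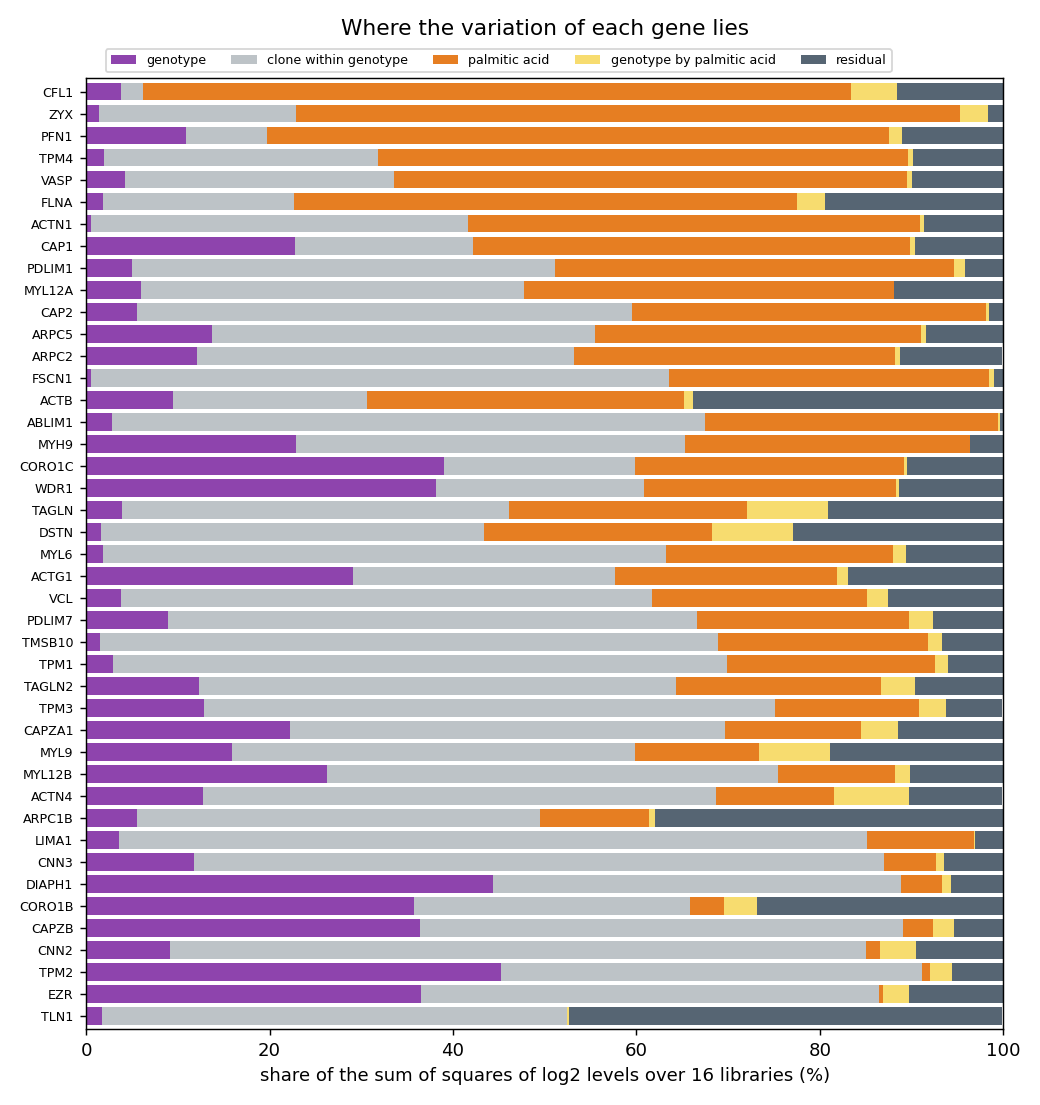
Share of the sum of squares of log2 levels over 16 libraries (x axis, %) that lay with genotype, clone within genotype, palmitic acid, their interaction and the residual, for each of the 43 tested genes (y axis, ordered by the palmitic acid share). The orange palmitic acid share is widest in CFL1 and ZYX and the grey clone share in LIMA1.

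Further genes of the pathway, in lists made for this comparison, moved less evenly. These lists and that of the 44 genes were chosen with earlier results of these data known, so the contrast is descriptive. Of 197 further genes of the actin and adhesion machinery, 182 were measured and 163 tested; 43 rose, 17 fell and 103 did not pass, with a median log2 change of 0.075. Of all tested genes 9.33% rose and 9.52% fell. Among integrins and adhesion proteins 16 of 44 rose and 2 fell (median 0.14), with the collagen receptor subunits ITGA1 (0.89 ± 0.13) and ITGA2 (0.79 ± 0.12) and the adhesion scaffold BCAR1 (0.50 ± 0.082) upward. For the Arp2/3 complex and its activators 5 of 21 rose and 2 fell (median 0.086): the core subunit ACTR2 (0.28 ± 0.048) and the branch stabiliser CTTN (0.38 ± 0.073) rose, and CYFIP2 of the WAVE complex fell (-0.36 ± 0.068). Of cofilin regulators and other turnover genes 3 of 21 rose and 5 fell (median 0.018). There the cofilin kinase TESK2 (-0.51 ± 0.079) and the monomer binder TWF2 (-0.29 ± 0.061) fell, and the capping protein CAPG (0.61 ± 0.11) rose. Of further crosslinkers 4 of 13 rose and 1 fell (median 0.12), including the bundler PLS3 (0.30 ± 0.055) and the stress fibre proteins SYNPO (0.86 ± 0.20) and PALLD (0.79 ± 0.22), the last 2 at low levels. Of formins and elongation factors 1 of 15 rose and 1 fell (median 0.069), namely SPIRE1 (0.26 ± 0.068) and COBLL1 (-0.45 ± 0.079). Without CC clone 3 the change of SPIRE1 was 0.17 (adjusted p = 0.121), that of PALLD 0.53 (adjusted p = 0.179) and that of SYNPO 0.83 (adjusted p = 0.0567). Without both CC clones SYNPO stood at 0.45 (adjusted p = 0.214), and the calls of SPIRE1 (without GC clone 3, GG clone 1 or GG clone 6) and PALLD (without GC clone 3, GC clone 4 or GG clone 6) were also lost when other clones were left out.

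Among the other actin genes the smooth muscle actin ACTA2 fell, from 36.6 to 94.97 units untreated to 19.4 to 78.8 (-0.56 ± 0.12, lower in 8 of 8 clones, adjusted p = 0.00801). The dynactin subunit ACTR1A rose by 0.18 ± 0.056, and the other 2 tested genes of that list did not pass. The ACTR1A call was lost in 7 of 8 fits that left out a clone (0.11, adjusted p = 0.228, without CC clone 3), with DESeq2 (adjusted p = 0.0629) and with total count scaling (0.0584). Of SRF and its partner factors, 3 of 6 tested rose and 0 fell, against 9.33% and 9.52% of all tested genes. Those that rose were the MRTF gene listed as MKL1 (0.58 ± 0.11, adjusted p = 0.00553), the ETS factor ELK3 (0.67 ± 0.14) and SRF itself (0.18 ± 0.052, adjusted p = 0.0363). SRF was higher in 8 of 8 clones, at 81.1 to 108 units untreated and 90.5 to 109 treated. The SRF call was lost in 6 of 8 fits that left out a clone (0.12, adjusted p = 0.191, without CC clone 3), without both CC clones (0.0631) and with DESeq2 (0.0653). Of the linkers between filaments and membrane, RDX, radixin, rose (0.17 ± 0.043) as the only one of 8 tested, and its call was lost without GC clone 2, 3 or 4 or GG clone 1 (adjusted p = 0.0511 to 0.0550).

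Markers of hepatocytes and of other cell types were read beside these changes. The 8 hepatocyte genes were present in all libraries, at a summed 19729.7 to 47495 untreated and 15029 to 35645 treated units. With palmitic acid 5 of 8 fell, against 9.52% of all tested genes: AFP (-0.54), APOA1 (-0.45), ALB (-0.40), HNF4A (-0.27) and FGB (-1.55). Without CC clone 3 the change of ALB was -0.35 (adjusted p = 0.0530) and that of HNF4A -0.15 (adjusted p = 0.145), and the HNF4A call was lost in 5 of the other 7 fits that left out a clone. ALB ranged from 17.7 to 807 units between untreated clones. Of 9 stellate cell and fibroblast markers 5 were measured, summing to 2.66 to 23.7 untreated and 2.25 to 16.4 treated units; COL1A1 and DES reached at most 1.84 and 0.724 units, and PDGFRB rose (1.12), a call lost without CC clone 3 (0.96, adjusted p = 0.112), GC clone 3 or GG clone 1. Of 6 smooth muscle markers 5 were measured, summing to 96.6 to 176 untreated and 91.4 to 152 treated. The defining MYH11, CNN1 and ACTG2 stayed at or below 2.93, 0.644 and 0.822 units, and nearly all of the sum was ACTA2 and SMTN. Macrophage markers (2 of 5 measured) summed to 9.41 to 20.5 untreated and 6.40 to 21.0 treated, endothelial markers (3 of 5) to 10.4 to 31.1 untreated and 9.44 to 33.6 treated and biliary markers (3 of 4) to 288 to 419 untreated and 286 to 395 treated. Of the tested markers in these 3 lists, 1 of 2 macrophage and 1 of 2 endothelial genes fell, against 9.52% of all tested genes. None rose, and the 3 biliary genes did not pass. The fall of the hepatocyte genes accompanied the rise of the actin genes, and its part in the result was not tested.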

How the data were processed

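RNA of 16 libraries was depleted of ribosomal RNA and made into directional libraries, per the labels' protocols. Tools listed in the submitters' processing notes are Bowtie2, edgeR, RSEM 1.3.0 and Trimmomatic 0.38, with build hg38; no source used here states the annotation, the gene filter or the strand setting. The authors deposited a normalized signal per gene. It equals per-million counts with TMM scaling (recomputed factors differed by at most 1.33e-15, relative), and 100% of values were whole reads at a tolerance of 0.01 reads. The protocol gives 48 h of palmitic acid, while the labels per library count up from 48 to 55 h along the samples; no comparison used hours.

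The 13095 genes whose mean reached 1 unit were fitted with limma 3.58.1 (R 4.3.3) and a mean-variance trend on log2(value + 0.5), two-sided, with Benjamini-Hochberg adjustment at 0.05. The response had 8 clone terms and 3 treatment terms (5 residual degrees of freedom). Genotypes were compared over the 8 libraries of a treatment. The pairing comes from the titles, which name the clone of both libraries: deviations from the group means correlated at 0.523 to 0.857 within a clone, in 8 of 8 clones most highly with the clone's own partner (both CC values, 0.744, mirror each other). Alternatives were no replicate block, equal clone weights, a pseudocount of 2, no filter, total-count and median-ratio scaling, edgeR 4.0.16 and DESeq2 1.42.0 on recovered reads, and each clone left out. The limma fits were also run on simulated data in which every clone had the same response. That simulation does not cover responses that differ between clones, as they did here.

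The genes, lists, pairs and alternatives were chosen with earlier results of these data known. All 44 genes are given; those past the threshold that moved the same way in all 8 clones have values per library. Of other pathway lists, up to 3 genes with the smallest p among those that passed are named. The result of 1 such list is not reported here; its genes are in the counts over all further genes. Positions and transcript lengths are from GENCODE 29 (44 of 44 genes matched) and promoters from RefSeq.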

Additional observations from a re-analysis of the deposited data

How the results depend on the processing

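Of the 29 genes called in the response over genotypes, 21 stayed past the threshold in every fit that left out a clone and in the other fits with a clone block. The number that rose was 19 to 32 with a clone left out and 25 to 27 under the other settings that kept the block; LIMA1 and PDLIM1 fell in all of them. Without a replicate block, which ignores that both libraries of a clone are paired, 1 of the 43 rose and 0 fell, with 3 of all tested genes in each direction, and within GG, GC and CC 0 rose and 0 fell. Leaving out a clone gave 666 (without CC clone 3) to 1843 (without CC clone 1) rising and 588 to 1910 falling genes of all tested. Within GG it gave 0 to 13 rising and 0 to 1 falling of the 43, and within GC 0 to 13 and 0 to 1. Over all tested genes it gave 0 to 276 rising within GG and 2 to 411 within GC. Leaving out a CC clone leaves 1 clone in CC, so no range is given there. DESeq2 called 10 rising within GC, 10 within CC and 1 falling within GG. Over all tested genes it called 217, 224 and 92 in these, against 115, 111 and 35 with limma. For related genes 0 to 0 pairs passed with a clone left out, with a lowest adjusted p of 0.0580 to 0.0813. With 7 clones the exact permutation test allows no p below 0.0156 before adjustment, so this does not measure dependence on single clones. The change of TLN1 was -0.019 with total count scaling, -0.00074 without both CC clones (an alternative chosen after seeing the data) and -0.11 to 0.11 with a clone left out. That of EZR was -0.0051 without both CC clones and -0.043 to 0.13 with a clone left out. The causes were not tested. In every alternative run, 0 of the 43 passed in the genotype comparisons and the test of equal responses. TAGLN2 (10 to 213 reads) and TPM2 (25 to 243) are the tested genes with the fewest reads, and MSN could not be tested.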
